A study of Homo sapiens with 9 samples.

Results

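Apolipoprotein transcripts were followed in PLC/PRF/5, a human hepatoma cell line, as 10 genes chosen by name: APOA1, APOA2, APOA4, APOA5, APOB, APOC1, APOC3, APOE, APOH and APOM. They are 10 of the 58219 genes in the deposited count tables, and each was found by its Ensembl identifier. RNA sequencing of polyadenylated RNA covered 9 samples. In 5 of them the cells stably expressed YES with the gatekeeper mutation T348I, which alters the drug-binding pocket, and in 4 they stably expressed wild-type YES (WT). YES is a Src family tyrosine kinase, encoded by YES1. All 9 samples had received 100 nM dasatinib, a drug that inhibits ABL and the Src family and that binds gatekeeper mutants less well. Samples without dasatinib were not analysed here, so each comparison sets T348I against WT in the presence of the drug.

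The sample titles spell the drug as dasatinib (3 T348I and 3 WT samples) or as Dasa (2 T348I samples and 1 WT sample), and each spelling has its own replicate numbers. They are treated below as a dasatinib set and a Dasa set and reported apart, because each holds samples of both genotypes. The labels do not say what the spelling marks, whether a stable line was 1 clone, or whether replicates were cultured separately. The p-values therefore describe spread among these samples only, and that spread may be technical. The Dasa set rests on WT Dasa replicate 1 alone, and its tests take that sample to vary like the samples of the other groups.

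Apolipoproteins are the protein parts of lipoprotein particles, which carry lipids through blood. The liver builds very low density lipoprotein around APOB, and high density lipoprotein (HDL) around APOA1 and APOA2, while the smaller exchangeable apolipoproteins steer lipases and receptor uptake. Hepatocytes are the main source of most of them, and hepatoma lines are known to keep part of this output.

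Gene reads per sample numbered 10381142 to 15799059 in T348I and 10464731 to 14118614 in WT. Genes of the mitochondrial genome took 7.93% to 9.44% of gene reads in T348I dasatinib samples and 7.38% to 7.94% in WT dasatinib samples, but 15.2% to 16.7% in T348I Dasa samples and 17.0% in the WT Dasa sample. YES1 stood at 553 to 605 CPM (reads scaled to a common library size) in T348I dasatinib samples, 974 and 1032 CPM in T348I Dasa samples and 341 to 368 CPM in WT samples of both sets. Introduced and endogenous YES1, and mutant and wild-type YES1, share 1 count. Hepatocyte and hepatoma markers were present: fibrinogen chain FGA averaged 2283 CPM in T348I and 2367 CPM in WT, and alpha-fetoprotein AFP 63.0 CPM in T348I and 95.4 CPM in WT. Albumin was scarce, at 2.49 CPM in T348I and 3.95 CPM in WT, and TTR had at most 5 reads in any sample. Of other cell types' markers, FABP2, a defining enterocyte gene, had 0 reads in every sample, but VIL1 of the same list averaged 20.4 CPM in T348I and 27.4 CPM in WT. PTPRC, which marks leukocytes, had 2 reads in 1 T348I Dasa sample and 0 in the other samples, but lysozyme (LYZ) of the same list averaged 1140 CPM in T348I and 1155 CPM in WT.

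Transcripts of most of the apolipoproteins were lower in T348I than in WT. With both sets in 1 model, 7 of the 8 members that could be tested were lower in T348I and 0 were higher (edgeR adjusted p threshold of 0.05). Of the 14617 genes that passed the filter on low counts, 21.8% were called lower and 20.7% higher in this comparison. The members were chosen with earlier results of these data known, so their count against these shares is descriptive and not a test. Overlap of the genotypes is described below for single genes. The share of all genes whose genotypes do not overlap was not computed. The median log2 fold change of the tested members was -0.75, against -0.0077 over all genes tested. APOA4 and APOA5 did not pass the filter. APOB was the tested member that was not called. Without WT Dasa replicate 1, the counts were 6 lower and 1 higher: APOM lost its call and APOB gained one, upward. In bulk RNA, fewer cells of a type and less RNA per cell cannot be told apart.

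In the dasatinib set taken by itself, 6 members were lower in T348I (APOE, APOC1, APOA1, APOH, APOA2 and APOC3) and 1 was higher (APOB), while APOM was not called. Over all genes of that comparison 17.3% were lower and 17.6% higher. In the Dasa set all 8 tested members were lower in T348I, where 19.1% of all genes were lower and 18.8% higher. The median log2 fold change of the tested members was -0.55 in the dasatinib set and -1.24 in the Dasa set, and the medians over all genes were -0.0029 and -0.0083.

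**Figure D1:**
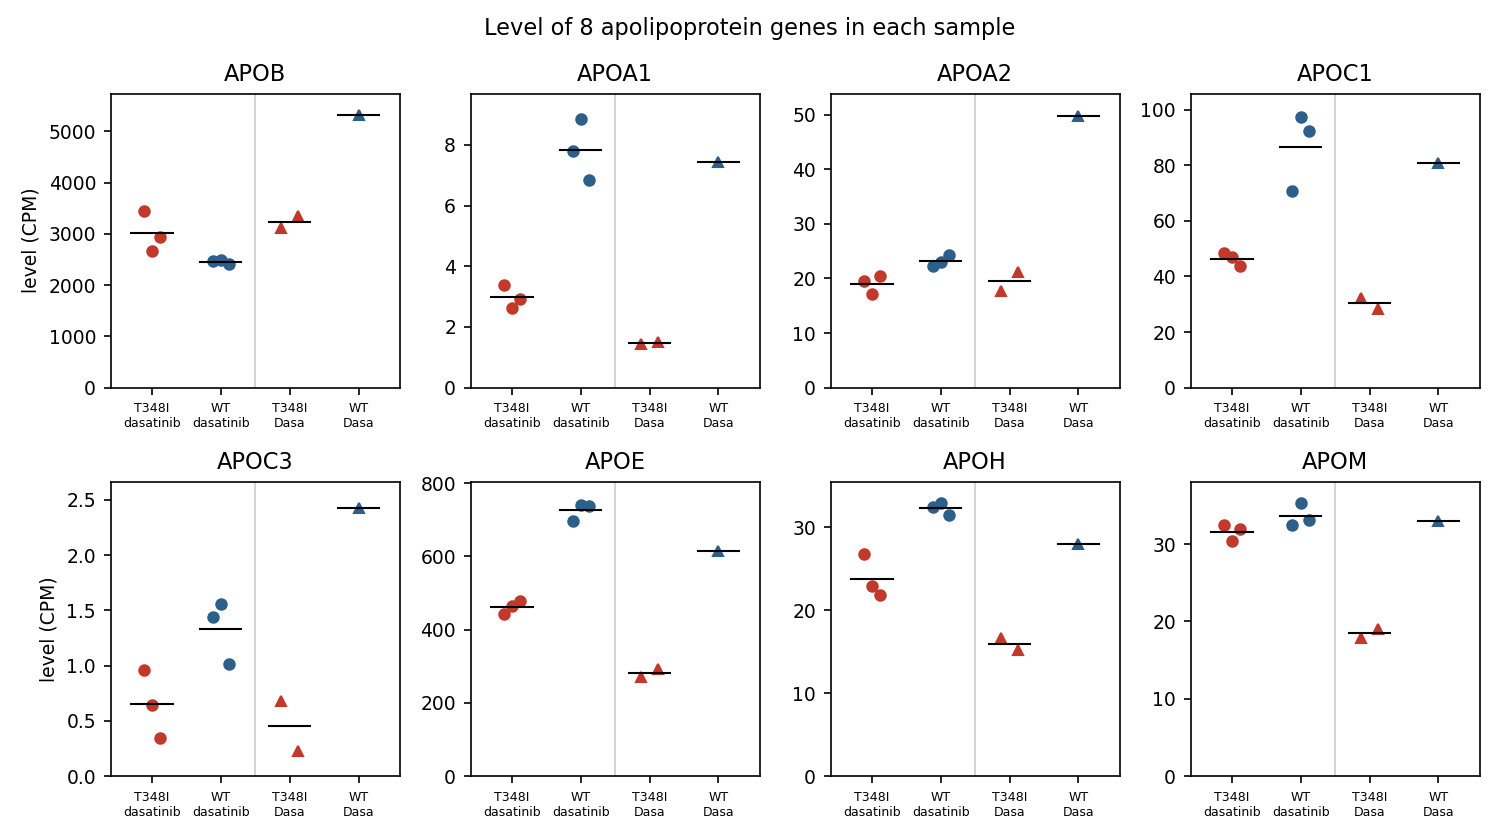
CPM of the 8 tested apolipoproteins in each sample, 1 panel per gene, with a CPM axis that starts at 0 and T348I samples left of WT samples within each title set. Points are samples and bars are group means. APOE, APOC1, APOA1 and APOH lie lower in every T348I sample than in any WT sample, as do APOA2 and APOC3 by a narrow gap. The share of all genes that separate in this way was not computed. APOB, APOA2 and APOC3 stand highest in the WT Dasa sample.

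APOB is the structural protein of very low and low density lipoprotein. The gene (ENSG00000084674.14) is protein coding and lies on the minus strand of chromosome 2 (21001429 to 21044073, GRCh38). It had 3445, 2660 and 2938 CPM in T348I dasatinib samples, against 2470, 2496 and 2413 CPM in WT dasatinib samples. APOB stood at 3118 and 3352 CPM in T348I Dasa samples, against 5321 CPM in the WT Dasa sample. The genotypes did not overlap within either set, but their order was opposite: T348I was higher in the dasatinib set and lower in the Dasa set. The log2 fold change, T348I over WT, was 0.29 (standard error 0.0526, edgeR adjusted p = 2.55e-05) in the dasatinib set and -0.72 (standard error 0.0766, edgeR adjusted p = 8.52e-10) in the Dasa set. Without T348I dasatinib replicate 1, the dasatinib-set value was 0.19 and still called. Over both sets it was -0.03 with a 95% interval of -0.29 to 0.22 (edgeR adjusted p = 0.852), and without WT Dasa replicate 1 it was 0.30 and called higher (edgeR adjusted p = 1.57e-05).

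The APOB log2 fold was 1.01 higher in the dasatinib set than in the Dasa set (edgeR interaction test, adjusted p = 1.12e-09). Mean log2(CPM + 1), dasatinib set minus Dasa set, differed by -0.11 in T348I and -1.11 in WT, so the WT Dasa sample carried most of it. APOB supplies most reads of the group, and the summed CPM of the 9 members without it was 574 to 598 in T348I dasatinib samples against 865 to 941 in WT dasatinib samples. The same sum was 358 and 378 CPM in T348I Dasa samples, against 815 CPM in the WT Dasa sample. No T348I sample reached the lowest WT sample.

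APOE, the ligand by which remnant particles bind their receptors on liver cells, had the smallest adjusted p of the tested members in each set. The gene (ENSG00000130203.9) lies on the plus strand of chromosome 19 (44905754 to 44909393, GRCh38). It had 443, 463 and 477 CPM in T348I dasatinib samples, against 697, 741 and 738 CPM in WT dasatinib samples. T348I Dasa samples had 271 and 293 CPM of APOE, against 614 CPM in the WT Dasa sample. Every T348I sample lay below every WT sample. APOE fell by 0.65 on the log2 scale in the dasatinib set (standard error 0.0372, edgeR adjusted p = 2.91e-17) and by 1.12 in the Dasa set (standard error 0.0552, edgeR adjusted p = 3.99e-19). That is 1.57-fold and 2.18-fold lower in T348I. The log2 fold was 0.47 less negative in the dasatinib set than in the Dasa set (edgeR interaction test, adjusted p = 6.01e-06).

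APOC1, a small exchangeable apolipoprotein that inhibits cholesteryl ester transfer protein, lies downstream of APOE on the same strand (ENSG00000130208.9, chromosome 19, 44914247 to 44919349). It had 48.5, 46.9 and 43.9 CPM in T348I dasatinib samples, against 70.6, 97.4 and 92.3 CPM in WT dasatinib samples. Its Dasa-set levels were 32.4 and 28.2 CPM in T348I, against 80.8 CPM in WT. The genotypes did not overlap in either set. APOC1 fell by 0.89 on the log2 scale in the dasatinib set (standard error 0.0727, edgeR adjusted p = 9.47e-13) and by 1.41 in the Dasa set (standard error 0.112, edgeR adjusted p = 4.67e-13). The difference between those log2 folds, dasatinib set minus Dasa set, was 0.52 and passed the test (edgeR adjusted p = 0.0113), but not without T348I Dasa replicate 2 (0.43, edgeR adjusted p = 0.103) or in DESeq2 (0.51, adjusted p = 0.345). Its level is uncertain, since 43.2% of its exon length is shared on the same strand with an annotated gene of unknown status, ENSG00000280087.1, and reads there count for neither. That gene held 4 to 21 reads per sample, and APOC1P1, a pseudogene copy, is also annotated nearby.

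Per kilobase of annotated exon, APOC1 stood at 19.5%, 18.0% and 16.4% of the APOE level in T348I dasatinib samples, against 18.0%, 23.4% and 22.3% in WT dasatinib samples. Within the Dasa set the ratio was 21.3% and 17.1% in T348I and 23.4% in WT. The ratios overlapped between the genotypes in the dasatinib set, while both levels lay lower in T348I.

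APOA1 is the main protein of HDL and activates lecithin-cholesterol acyltransferase. The gene (ENSG00000118137.9) lies on the minus strand of chromosome 11 (116835751 to 116837950, GRCh38) within a cluster of apolipoprotein genes. It had 3.37, 2.63 and 2.93 CPM in T348I dasatinib samples, against 7.80, 8.86 and 6.84 CPM in WT dasatinib samples. APOA1 stood at 1.43 and 1.51 CPM in T348I Dasa samples, against 7.43 CPM in the WT Dasa sample. The highest T348I sample stood below the lowest WT sample, and the 4 WT samples of both sets lay close together. APOA1 fell by 1.40 on the log2 scale in the dasatinib set (standard error 0.158, edgeR adjusted p = 3.75e-09) and by 2.33 in the Dasa set (standard error 0.261, edgeR adjusted p = 2.7e-09). The difference of 0.93, dasatinib set minus Dasa set, did not pass (95% interval 0.29 to 1.57, edgeR adjusted p = 0.0681). It did with counts taken without regard to strand (1.17, edgeR adjusted p = 0.0334) and without WT dasatinib replicate 2 (1.01, edgeR adjusted p = 0.0496).

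APOA2, the second protein of HDL, lies on the minus strand of chromosome 1 (ENSG00000158874.11, 161222292 to 161223631, GRCh38). It had 19.5, 17.1 and 20.4 CPM in T348I dasatinib samples, against 22.2, 23.0 and 24.2 CPM in WT dasatinib samples. The Dasa set gave 17.8 and 21.2 CPM in T348I, against 49.7 CPM in WT. The 5 T348I samples were alike across the sets, and the WT Dasa sample stood far above the other WT samples. APOA2 fell by 0.30 on the log2 scale in the dasatinib set (standard error 0.0809, edgeR adjusted p = 0.0036), a call that was lost without T348I dasatinib replicate 2 (-0.21, edgeR adjusted p = 0.0735). The log2 fold was -1.36 in the Dasa set (standard error 0.0995, edgeR adjusted p = 4.78e-14), and the difference of 1.06, dasatinib set minus Dasa set, passed (edgeR adjusted p = 3.25e-07). Over both sets the log2 fold was -0.70 (edgeR adjusted p = 0.000335), and -0.29 without WT Dasa replicate 1 (edgeR adjusted p = 0.00438).

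APOC3, an inhibitor of lipoprotein lipase and of remnant uptake, lies beside APOA1 on the plus strand of chromosome 11 (ENSG00000110245.11, 116829706 to 116833072, GRCh38). It was rare, with 10, 10 and 4 reads in T348I dasatinib samples (0.963, 0.642 and 0.344 CPM), against 21, 17 and 15 reads in WT dasatinib samples (1.44, 1.55 and 1.01 CPM). T348I Dasa samples held 10 and 3 reads (0.681 and 0.227 CPM), against 32 reads in the WT Dasa sample (2.42 CPM). All T348I samples lay below all WT samples, but the dasatinib samples of the genotypes nearly touched. APOC3 fell by 1.03 on the log2 scale in the dasatinib set (standard error 0.368, edgeR adjusted p = 0.0268). This call was lost in DESeq2 (adjusted p = 0.136), and in edgeR without T348I dasatinib replicate 2 (adjusted p = 0.0742) or 3 (0.139), or without WT dasatinib replicate 1 (0.0778) or 2 (0.0803). In the Dasa set it fell by 2.36 (standard error 0.482, edgeR adjusted p = 0.000143). The difference of 1.33, dasatinib set minus Dasa set, did not pass (95% interval 0.05 to 2.61, edgeR adjusted p = 0.222). Over both sets the log2 fold was -1.55 (edgeR adjusted p = 0.000867), and -1.03 without WT Dasa replicate 1 (edgeR adjusted p = 0.0297).

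APOA4, an intestinal apolipoprotein, and APOA5, a liver protein that promotes triglyceride lipolysis, complete the chromosome 11 cluster and were close to undetected. APOA4 had 1 read over the 5 T348I samples and 13 reads over the 4 WT samples, where each WT sample held some. Relative to depth this is a ratio of WT over T348I of 15.9, with a 95% exact interval of 2.39 to 676 that covers counting error only. APOA5 had 3 reads over the T348I samples and 1 read over the WT samples, too few for a fold.

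APOH and APOM are structurally apart from the exchangeable apolipoproteins. APOH (beta-2-glycoprotein I), a plasma glycoprotein that binds phospholipids, lies on the minus strand of chromosome 17 (ENSG00000091583.10, 66212033 to 66256525, GRCh38). It had 26.8, 22.9 and 21.8 CPM in T348I dasatinib samples, against 32.5, 32.9 and 31.5 CPM in WT dasatinib samples. APOH stood at 16.6 and 15.1 CPM in T348I Dasa samples, against 28.0 CPM in the WT Dasa sample. Every T348I sample was below every WT sample. APOH fell by 0.45 on the log2 scale in the dasatinib set (standard error 0.0707, edgeR adjusted p = 3.29e-06) and by 0.82 in the Dasa set (standard error 0.114, edgeR adjusted p = 2.78e-07). The difference of 0.37, dasatinib set minus Dasa set, did not pass (95% interval 0.10 to 0.64, edgeR adjusted p = 0.0883).

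APOM, a lipocalin on HDL that carries sphingosine-1-phosphate, lies on the plus strand of chromosome 6 (ENSG00000204444.10, 31652416 to 31658210, GRCh38). It had 32.5, 30.4 and 31.9 CPM in T348I dasatinib samples, against 32.5, 35.4 and 33.1 CPM in WT dasatinib samples. Its Dasa-set levels were 17.9 and 19.1 CPM in T348I, against 33.0 CPM in WT. The genotypes overlapped in the dasatinib set, and only the T348I Dasa samples stood low. The log2 fold was -0.09 in the dasatinib set (95% interval -0.22 to 0.04, edgeR adjusted p = 0.277), and APOM fell by 0.84 in the Dasa set (standard error 0.101, edgeR adjusted p = 1.36e-08). The difference of 0.74, dasatinib set minus Dasa set, passed (edgeR adjusted p = 3.21e-05). Over both sets APOM was called lower (-0.31, edgeR adjusted p = 0.013), but not without WT Dasa replicate 1 (-0.08, edgeR adjusted p = 0.312). Reads on the strand opposite APOM came to 43.0% to 83.3% of its own in a sample, and BAG6 on that strand shares 136 exon bases with it. The values here use the sense strand.

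**Figure D2:**
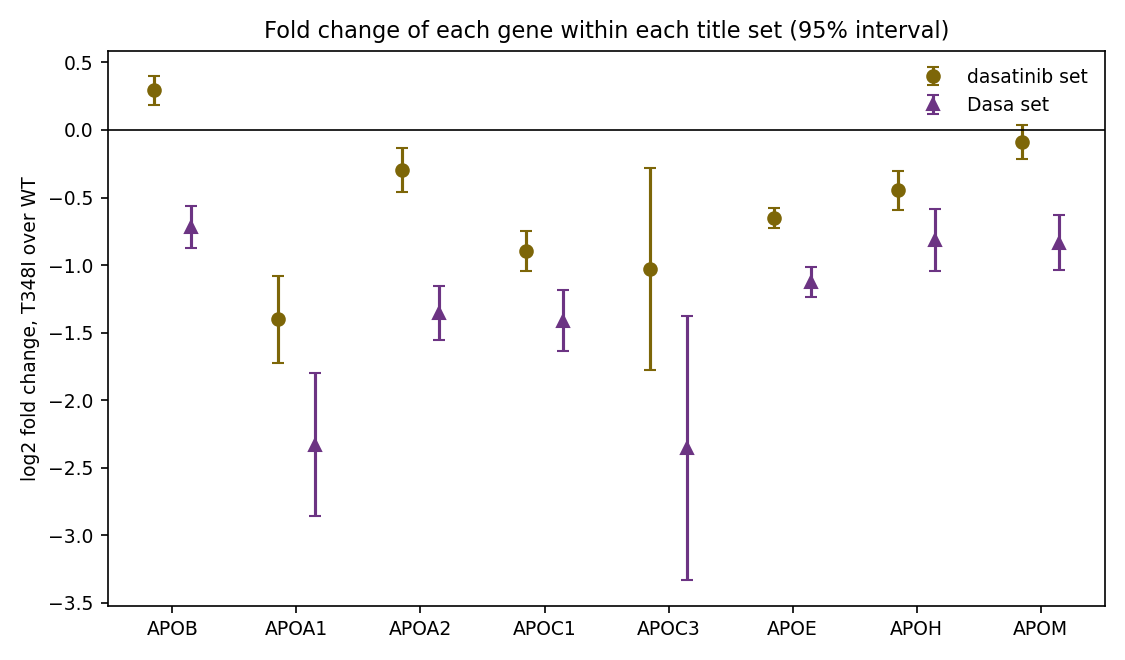
Log2 fold change of T348I over WT for each of the 8 tested apolipoproteins, for the dasatinib set and the Dasa set, with bars of the 95% interval from edgeR. APOB lies above 0 in the dasatinib set (0.29) and below 0 in the Dasa set (-0.72), and each of the other members lies further below 0 in the Dasa set.

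The fold differed between the sets for 5 of the 8 tested members (APOA2, APOB, APOC1, APOE and APOM), and each was higher in the dasatinib set. Over all genes tested, 4.19% had a higher fold and 3.14% a lower fold in the dasatinib set than in the Dasa set. The members did not reach this difference in the same way. Taking mean log2(CPM + 1), dasatinib set minus Dasa set, APOB differed by -0.11 in T348I and -1.11 in WT, and APOA2 by -0.03 in T348I and -1.07 in WT. For these 2 genes the sets differed mainly in WT. The reverse held for APOM, with 0.74 in T348I and 0.03 in WT, and for APOC1, with 0.60 in T348I and 0.09 in WT. APOE was higher in the dasatinib set in both genotypes, by 0.71 in T348I and 0.24 in WT. Of the members whose difference did not pass, APOA1 had 0.68 in T348I and 0.06 in WT, and APOH 0.55 in T348I and 0.20 in WT. APOC3 had 0.18 in T348I and -0.56 in WT. The added 1 shrinks these values for genes at a few CPM, such as APOA1 and APOC3. The mitochondrial share also differed between the sets, as given above. YES1 differed in T348I, with means of 580 CPM in the dasatinib set and 1003 CPM in the Dasa set. In WT its means were close, at 349 CPM and 368 CPM. Reads that map to several places took 10.9% to 16.9% of a file in the dasatinib set and 7.14% to 7.99% in the Dasa set. Leaving mitochondrial genes out before scaling, a step added after seeing the data, changed no member's call. That step checks the scaling only and cannot show what the mitochondrial share reflects. The part of the mitochondrial share, of YES1 level and of the multimapping share in these values was not tested.

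Levels of different genes can be compared per kilobase of annotated exon, here as CPM per kilobase over the union of exons. In T348I dasatinib samples APOE (mean 210, range 202 to 218) and APOB (mean 203, range 179 to 232) overlapped at the top. In WT dasatinib samples APOE (mean 331) stood above APOB (mean 166) with no overlap. In the Dasa set APOB led in both genotypes, with 218 in T348I and 359 in WT, against APOE at 129 in T348I and 280 in WT. APOC1 came next in each group, at 37.7 in T348I dasatinib samples and 70.5 in WT dasatinib samples. APOA2, APOH and APOM followed at 11.1 to 52.6 in the 4 group means. APOA2 and APOH overlapped in WT dasatinib samples, and APOA2, APOM and APOH overlapped in T348I dasatinib samples. APOA1 and APOC3 came last of the tested members, at 2.09 and 0.750 in T348I dasatinib samples and 5.50 and 1.54 in WT dasatinib samples.

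APOB and APOE together made up 80.5% to 81.4% of the summed level per kilobase in T348I dasatinib samples, against 76.3% to 78.6% in WT dasatinib samples. The pair made up 82.6% and 83.8% in T348I Dasa samples, against 79.2% in the WT Dasa sample. The make-up inside this pair differed: APOE alone took 37.6% to 43.6% in T348I dasatinib samples and 50.9% to 51.8% in WT dasatinib samples.

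The sequence before the start site is shown for the 3 members whose window in RefSeq (GRCh38.p14) held the fewest bases of annotated exon among those that passed the filter. It is printed in the gene's direction from 250 bases before the RefSeq start up to the GENCODE release 29 exon at that start. In GENCODE the APOH gene begins further upstream, at 66256525, so the APOH stretch lies inside the annotated gene. APOA2 is chr1:161223632-161223878 on the minus strand, APOE chr19:44905546-44905753 on the plus strand and APOH chr17:66229423-66229665 on the minus strand. RefSeq gives APOE several start sites, and the stretch before the first is printed. The window of APOE start site 3 held 41 bases of annotated exon, against 42 for the printed one. Capitals mark matches to any of 8 motifs, searched on both strands.
APOA2: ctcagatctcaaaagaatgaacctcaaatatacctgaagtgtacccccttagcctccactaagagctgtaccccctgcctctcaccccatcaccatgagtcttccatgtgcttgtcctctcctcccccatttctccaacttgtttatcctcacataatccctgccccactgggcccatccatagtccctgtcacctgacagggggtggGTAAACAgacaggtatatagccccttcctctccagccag
APOE: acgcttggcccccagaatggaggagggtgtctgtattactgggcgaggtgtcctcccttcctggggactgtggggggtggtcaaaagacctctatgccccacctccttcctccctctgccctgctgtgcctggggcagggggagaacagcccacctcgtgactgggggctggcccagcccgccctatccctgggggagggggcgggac
APOH: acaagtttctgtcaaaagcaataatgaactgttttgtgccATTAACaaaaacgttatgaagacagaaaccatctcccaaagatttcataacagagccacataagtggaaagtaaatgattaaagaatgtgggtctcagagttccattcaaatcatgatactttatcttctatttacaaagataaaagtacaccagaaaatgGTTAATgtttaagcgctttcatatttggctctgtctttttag
The motifs were CAAAGTCCA for HNF4, AGGTCA for nuclear receptors, TATAAA for the binding protein TBP, CCAAT for the factor NF-Y, TGTTTAC for FOXA, GTTAAT for HNF1, TTGCNNAA for C/EBP and TGANTCA for AP-1, and no printed matches overlap. The APOA2 match is FOXA on the opposite strand, at positions -42 to -36 from the start. FOXA letters occur in 2.98% of 34788 windows of this length over all genes. APOH has HNF1 letters at positions -210 to -205 on the opposite strand and -49 to -44 on its own strand, and 6.26% of windows hold them. The printed APOE stretch holds none of the 8, but its full window of 250 bases, the length used for the shares, has CCAAT on the opposite strand at -27 to -23, among the bases not printed. At APOE start site 3, not printed, CCAAT lies on the opposite strand at -202 to -198. CCAAT occurs in 32.0% of windows. These are letter matches only.

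**Figure D3:**
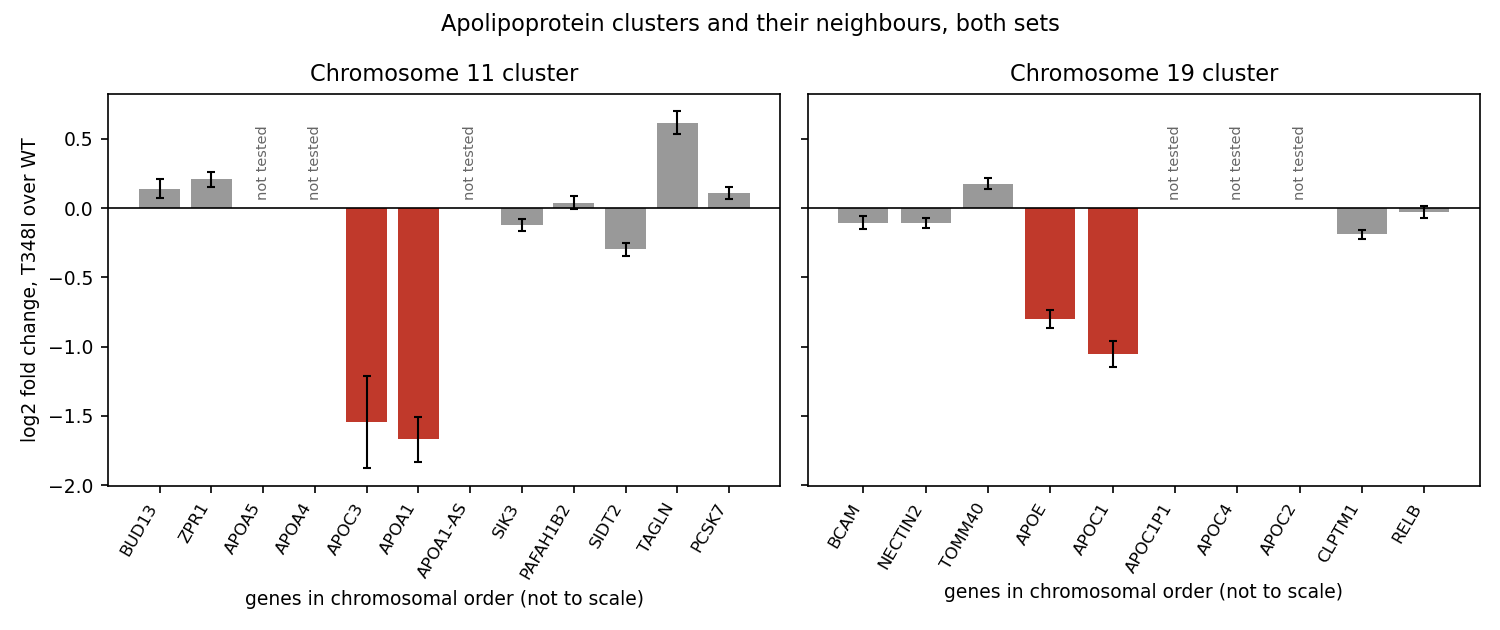
Log2 fold change of T348I over WT over both sets, with bars of 1 standard error, for genes in and beside the apolipoprotein clusters of chromosome 11 and chromosome 19, in chromosomal order and not to scale; genes that failed the filter are marked not tested. APOA1 and APOC3 (chromosome 11) and APOE and APOC1 (chromosome 19) lie below the neighbouring genes drawn.

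The genes around the clusters did not share the size of the members' decline. On chromosome 11, APOA1 (-1.67) and APOC3 (-1.55) stood beside ZPR1 (0.21, edgeR adjusted p = 0.00368), BUD13 (0.14, not called) and SIK3 (-0.12, edgeR adjusted p = 0.0369), in log2 folds over both sets. Further along, SIDT2 fell by 0.30, TAGLN, a smooth muscle actin-binding protein, rose by 0.62 and PAFAH1B2 (0.04) was not called. ZPR1 was not called in the dasatinib set (0.11, edgeR adjusted p = 0.0532) and was at 0.44 in the Dasa set. In the dasatinib set and the Dasa set, BUD13 was at 0.07 and 0.30, and PAFAH1B2 at -0.04 and 0.23. In the same order, SIK3 was at -0.10 and -0.18, SIDT2 at -0.23 and -0.44, and TAGLN at 0.64 and 0.59. APOA1-AS, an antisense gene that shares 123 exon bases with APOA1 on the other strand, had 1 read in 1 T348I Dasa sample and 0 in the other samples. PCSK7, a proprotein convertase, was called higher over both sets (0.11), with an edgeR adjusted p just under the threshold that rounds to 0.05. It was not called in the dasatinib set (0.08) and was at 0.17 in the Dasa set. On chromosome 19, APOE (-0.80) and APOC1 (-1.05) stood between TOMM40, the mitochondrial import pore protein, which rose by 0.18 (edgeR adjusted p = 0.0023), and CLPTM1, which fell by 0.19 (edgeR adjusted p = 0.000245). NECTIN2 fell by 0.11, and BCAM (-0.11) and RELB (-0.03) were not called over both sets. BCAM was called lower in the dasatinib set (-0.17, edgeR adjusted p = 0.00589) and was at 0.02 in the Dasa set. TOMM40 was at 0.11 in the dasatinib set and 0.32 in the Dasa set. APOC2 and APOC4, the other apolipoproteins there, had almost no counted reads, with mean values of 0 in T348I and at most 0.0169 CPM in WT. On the same strand, 55.4% of the exon length of APOC2 and 83.0% of that of APOC4 are shared with the readthrough gene APOC4-APOC2, and reads there count for neither, so their levels are uncertain.

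Other apolipoproteins that passed the filter moved the opposite way. Of the 12 listed, 4 were tested, and all 4 rose in T348I over both sets, with a median of 0.35 against -0.0077 over all genes. The share of all genes tested that was called higher was 20.7%. APOL1, the trypanosome lytic factor carried on HDL, had 2.31, 2.96 and 1.55 CPM in T348I dasatinib samples and 3.82 and 3.79 CPM in T348I Dasa samples, against 0.274, 0.457 and 0.542 CPM in WT dasatinib samples and 0.227 CPM in the WT Dasa sample. APOL1 was thus above every WT sample in every T348I sample, with a log2 fold of 2.84 (standard error 0.309, edgeR adjusted p = 4.58e-07) on 3 to 8 reads per WT sample. Clusterin (CLU, also called APOJ), an extracellular chaperone, rose by 0.24, APOL6 by 0.39 and APOL2 by 0.31. CLU overlapped between the genotypes across the sets. It had 296 CPM in the WT Dasa sample, against 257, 268 and 283 CPM in T348I dasatinib samples. The CLU fold was 0.29 in the dasatinib set and 0.15 in the Dasa set. APOL2 was not called in the dasatinib set (0.18, edgeR adjusted p = 0.0644).

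Genes for assembling and secreting lipoproteins were mostly lower. Of 17 listed, 13 were tested, with 8 lower and 1 higher (LMAN1, a cargo receptor, by 0.11) and a median of -0.25. The shares over all genes tested were 21.8% lower and 20.7% higher. SAR1B, the GTPase that starts the COPII coats of lipoprotein carriers, fell by 0.34 (edgeR adjusted p = 9.55e-06). The coat subunits SEC23A and SEC24A fell by 0.25 and 0.28, and the sorting receptor SORT1 fell by 0.24. MTTP, which loads lipid onto APOB and was named after its value was seen, fell by 0.29 in the dasatinib set and 0.96 in the Dasa set. MTTP averaged 14.4 CPM in T348I and 17.7 CPM in WT dasatinib samples. Dasa samples averaged 17.3 CPM in T348I, against 33.4 CPM in WT.

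Of 11 listed receptors for lipoproteins and their partner proteins, 9 were tested. Over both sets 1 was lower and 2 were higher, with a median of -0.07. Over all genes tested, 21.8% were lower and 20.7% higher, so these small counts do not set the list apart. SDC1, a heparan sulfate proteoglycan that binds remnants, averaged 191 CPM in T348I and 78.2 CPM in WT. SDC1 rose by 0.97 on the log2 scale in the dasatinib set (edgeR adjusted p = 5.05e-21) and by 1.82 in the Dasa set (edgeR adjusted p = 1.72e-23). LSR, the lipolysis-stimulated lipoprotein receptor, rose by 0.20 over both sets (edgeR adjusted p = 0.00033). LRP8, an APOE receptor, fell by 0.41 (edgeR adjusted p = 1.51e-06). LRP1, a remnant receptor, was not called over both sets (-0.17, edgeR adjusted p = 0.0577) or in the dasatinib set (-0.02, edgeR adjusted p = 0.869), and fell by 0.43 in the Dasa set (edgeR adjusted p = 7.64e-06). Its folds differed between the sets (edgeR adjusted p = 0.0029).

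Among 18 genes of HDL formation and plasma remodelling, 9 were tested, with 3 lower and 1 higher and a median of -0.01. With 21.8% lower and 20.7% higher over all genes tested, these small counts do not set the list apart. LIPC, hepatic lipase, averaged 28.2 CPM in T348I and 69.3 CPM in WT and fell by 1.31 on the log2 scale (edgeR adjusted p = 2.43e-09). ABCA1, which hands cholesterol to APOA1, fell by 0.19 over both sets and by 0.36 in the Dasa set (edgeR adjusted p = 0.00275), and was not called in the dasatinib set (-0.09, edgeR adjusted p = 0.4). GPLD1 fell by 0.29 over both sets, but was called in neither the dasatinib set (edgeR adjusted p = 0.0801) nor the Dasa set (edgeR adjusted p = 0.257). SAA1, an acute-phase apolipoprotein of HDL, rose at low levels, 1.87 CPM in T348I and 0.244 CPM in WT (edgeR adjusted p = 7.4e-06).

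Of 27 transcription factors and cofactors known to act on apolipoprotein genes, 26 were tested, with 15 lower and 2 higher and a median of -0.20. The shares over all genes tested were 21.8% lower and 20.7% higher. CEBPA fell by 0.73 (edgeR adjusted p = 1.99e-08), CREB3L3, a liver membrane-bound factor that activates apolipoprotein genes, fell by 1.02 (edgeR adjusted p = 3.29e-07) and ONECUT1 fell by 0.56 (edgeR adjusted p = 1.72e-06). CEBPB rose by 0.68 (edgeR adjusted p = 7.38e-11). HNF4A, a main activator of the APOA1 and APOC3 cluster, fell by 0.12 in the dasatinib set and 0.52 in the Dasa set. In the same order, CEBPA fell by 0.66 and 0.84, CREB3L3 by 0.75 and 1.58, and ONECUT1 by 0.40 and 0.88. CEBPB rose by 0.63 in the dasatinib set and 0.77 in the Dasa set. The part of these factors in the members' values was not tested.

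The hepatocyte and hepatoma marker list moved in the same direction as the members. Of its 11 genes 10 were tested, with 8 lower and 0 higher over both sets and a median of -0.24. In the dasatinib set 4 were lower and 1 higher, and in the Dasa set 9 were lower. Over all genes tested, the shares lower and higher were 21.8% and 20.7% over both sets. They were 17.3% and 17.6% in the dasatinib set, and 19.1% and 18.8% in the Dasa set. The summed level of the 11 genes was 7958 to 8314 CPM in T348I dasatinib samples against 8342 to 8682 CPM in WT dasatinib samples. Within the Dasa set it was 5668 and 6038 CPM in T348I against 7953 CPM in WT. Transferrin (TF) fell by 0.76 and AFP by 0.57 over both sets, while FGA (-0.01) was not called. The part of these marker levels in the members' values was not tested.

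Marker lists of other cell types were summed within each set. The 6 enterocyte genes came to 17.6 to 21.7 CPM in T348I dasatinib samples against 24.7 to 26.7 CPM in WT dasatinib samples, and to 24.2 and 27.9 CPM in T348I Dasa samples against 39.2 CPM in the WT Dasa sample. VIL1 made up most of this and fell by 0.49 over both sets (edgeR adjusted p = 1.47e-05). The 6 fibroblast genes came to 4.56 to 6.17 CPM in T348I dasatinib samples against 3.66 to 3.90 CPM in WT dasatinib samples, and to 9.47 and 9.77 CPM in T348I Dasa samples against 8.34 CPM in the WT Dasa sample. COL1A1, their 1 tested gene, rose by 0.52 over both sets (edgeR adjusted p = 0.00485). The 6 leukocyte genes came to 1320 to 1405 CPM in T348I dasatinib samples against 1180 to 1257 CPM in WT dasatinib samples. In the Dasa set their order was opposite, with 803 and 816 CPM in T348I against 960 CPM in WT. LYZ made up nearly all of this sum and was called higher in the dasatinib set (0.16, edgeR adjusted p = 0.000639) and lower in the Dasa set (-0.25, edgeR adjusted p = 0.000374), the same orders as APOB. The 5 endothelial genes came to 1.81 to 2.5 CPM in T348I dasatinib samples against 1.37 to 2.37 CPM in WT dasatinib samples, and to 3.61 and 3.94 CPM in T348I Dasa samples against 3.56 CPM in the WT Dasa sample. The part of these markers in the members' values was not tested.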

How the data were processed

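Each deposited file holds raw counts of reads per gene for 1 sample. Per the submitters' processing notes, the authors' tools were STAR 2.5.1b, Trimmomatic 0.35 and CASAVA 1.8.2, and the build GRCh38. Which gene annotation was counted is not given in the sources used here. Libraries came from a stranded polyA kit, per the labels' protocols, and the sense-strand counts (column 4) were used. Reads assigned to no gene (22.2% to 29.8% of a file) were left out; reads mapping to several places are among them, which lowers genes with near-identical copies.

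Symbols came from a table of gene names, and coordinates and exon lengths from GENCODE release 29 where version numbers matched. All 10 members matched. In R 4.3.3, edgeR 4.0.16 filtered genes (filterByExpr), scaled them by TMM and tested them with the quasi-likelihood test over all 9 samples: a model of set and genotype gave the comparison over both sets, and a model of 4 groups gave each set's fold and their difference. P-values were adjusted by Benjamini-Hochberg over the 14617 genes tested, with a threshold of 0.05. CPM values use TMM-scaled library sizes. The script was tested on simulated data. No 2 samples of a group were duplicates: their chi-square per gene was 1.49 to 3.09, above the value sampling noise gives.

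The members and lists were chosen with earlier results of these data known. All members are named, up to 4 genes of each list by smallest p, every neighbour gene, and YES1. MTTP, LMAN1, FGA, ALB, TTR, FABP2 and PTPRC fall outside this rule and were chosen after their values were seen. Alternatives were DESeq2 1.42.0, other scalings, no filter, counts without regard to strand, no set term, a replicate block, the dasatinib set alone, leaving out each sample and, added after seeing the data, leaving out mitochondrial genes. Some genes that the lists would hold are not reported here.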

Additional observations from a re-analysis of the deposited data

Results flagged for a closer look

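The log2 fold change of T348I over WT differed between the dasatinib set and the Dasa set for 5 members by the edgeR interaction test. The difference, dasatinib set minus Dasa set, was 1.06 for APOA2, 1.01 for APOB, 0.74 for APOM, 0.47 for APOE and 0.52 for APOC1. Each rests on 2 T348I samples and 1 WT sample in the Dasa set. APOB is the member whose fold has opposite signs in the sets.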

How the results depend on the processing

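Of 512 values of single members recomputed under an alternative, 493 kept their direction and their side of the threshold, 13 lost a call, 2 gained one and 4 turned direction. All 4 were APOB over both sets, a value that was not called: 0.0243 with the replicate block, and -0.14 to 0.30 when 1 sample was left out, with the positive values without WT Dasa replicate 1 (0.30, called), T348I Dasa replicate 1 (0.06) or T348I Dasa replicate 2 (0.04). Leaving out 1 sample gave 0 to 1 members called higher over both sets. Without the set term 2350 genes were called over both sets, against 6212, and APOA2 (-0.63, edgeR adjusted p = 0.087) and APOM (-0.35, edgeR adjusted p = 0.224) lost their calls; the cause was not tested. The replicate block ended the call of APOM over both sets (-0.27, edgeR adjusted p = 0.0719) and of the APOC1 difference (0.41, edgeR adjusted p = 0.108). Same-numbered samples of the dasatinib set had correlations of -0.0077, -0.0763 and 0.0033. These values showed no pairing by number, but with so few samples they cannot show that it is absent. With no filter on low counts APOA4 was also called lower over both sets, on 1 read over the T348I samples and 13 over the WT samples. That fit called 6203 genes in either direction, and its share over all genes was not computed. Both other scalings, and leaving out mitochondrial genes, changed no member's call. Without WT Dasa replicate 1 the Dasa set and the difference could not be computed. Depth limits APOC3, APOA4 and APOA5, with at most 32 reads in a sample.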
